A study of Mus musculus with 12 samples.

Results

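The genes described here encode proteins that the liver secretes for complement, blood clotting and the removal of clots. They were chosen by name from a list of 42 mouse genes, and 41 of the 42 had a row in the table of read counts, which held 46078 genes in all. The list was split by textbook role into 20 complement genes, 18 clotting genes and 3 genes of fibrinolysis. The gene without a row was Klkb1, plasma prekallikrein: its GENCODE entry was not in the table, and a row for an overlapping gene model, Gm45753, was not counted in its place.

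Complement is a cascade of plasma proteases and binding proteins that marks microbes and injured cells; it starts from antibodies, sugars or spontaneous turnover of C3 and ends in a pore of the terminal components. Clotting is a second cascade, in which factors cut one another until thrombin turns fibrinogen into fibrin, while plasmin later dissolves the fibrin. Hepatocytes make most of these proteins, and several of them, fibrinogen above all, belong to the acute phase proteins that the liver makes in larger amounts during inflammation.

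The livers came from 12 C57BL/6 mice (C57BL/6J per the study's methods) with diet-induced obesity, aged 21 weeks, of which 4 had vertical sleeve gastrectomy (VSG), an operation that removes most of the stomach. Another 4 had sham surgery and were then fed less so that their weight followed the VSG mice (Sham-WM), and 4 had sham surgery and ate freely (Sham-Ad lib). Per the study's methods all mice were male and had been given a high fat diet before the operation, so these were shared by all groups. Per the study, VSG and Sham-WM mice then lost weight down to that of a reference group on standard chow. Body weight at collection thus differed between Sham-Ad lib and both other groups. The table held no unoperated mouse and no mouse kept on standard chow. Libraries are named here by group and animal number, such as VSG 18F, and groups follow the animal number that library names and titles have in common. A second field of the labels pairs every library with another animal; grouped by it, 0 genes of the whole table were called in any comparison, and 0 of the 41 reached an unadjusted p under 0.05. The comparison of VSG with Sham-WM sets the operation against food restriction at matched weight, and each was also compared with Sham-Ad lib.

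Total counts lay between 15122520 and 19384076 per library. All 41 genes passed the filter on low counts, as did 13054 genes of the table. Levels are given as CPM, the count of a gene relative to the library total, scaled by TMM, edgeR's correction for library composition, and fold changes are on the log2 scale. A gene was called at an adjusted p under 0.05 in edgeR's quasi-likelihood test with Benjamini-Hochberg adjustment over all genes tested. The hepatocyte markers Alb, Ttr, Apoa1, Apob, Cps1, Cyp2e1 and Ass1 were high in every library, with a summed level of 87950 CPM or more, and pancreas markers summed to at most 1.26 CPM. In whole liver, fewer cells of a type and less RNA per cell cannot be told apart. The index numbers in the library names formed 1 block per group, so a batch along them and the treatment cannot be told apart.

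C3, the central complement protein, and the fibrinogen chains were the most abundant members per length. As a mean over 12 libraries, C3 stood at 2024 CPM per kb of exon, Fga at 1872, Fgg at 1817 and Fgb at 1378, followed by Vtn (vitronectin) at 1353. At the other end were C2 at 11.9, Cfb at 8.85, Masp1 at 7.77 and F3, tissue factor, at 1.56 CPM per kb. The counts of F3 in single libraries were 31 to 127, and which cells of the liver they came from was not tested. The order of neighbours such as Fga and Fgg is not firm, since the mean of Fga per kb was 1852 and that of Fgg 1725 in Sham-Ad lib but 2459 and 2480 in VSG.

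**Figure D1:**
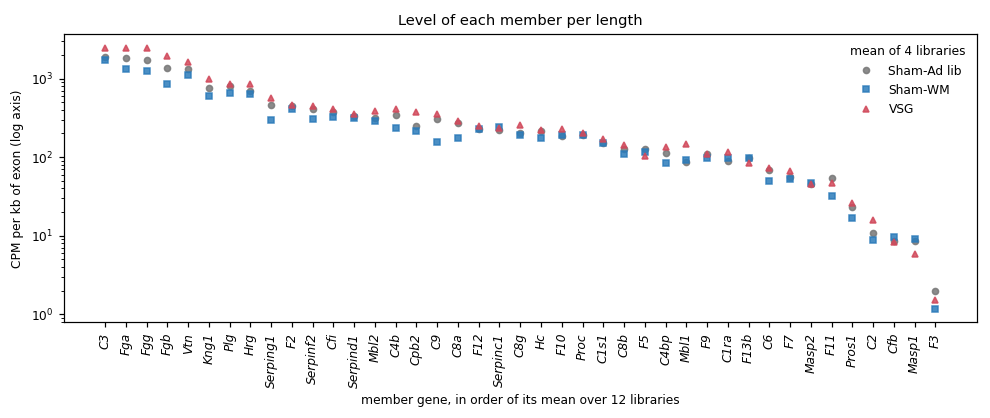
Mean level of each of the 41 genes per length, in CPM per kb of exon on a log axis, for Sham-Ad lib (circles), Sham-WM (squares) and VSG (triangles), 4 libraries each. Genes are ordered by their mean over 12 libraries, from C3 at 2024 to F3 at 1.56 CPM per kb.

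In VSG against Sham-WM, 15 of the 41 genes were higher in VSG and 0 were lower by the test. Among all genes tested, 26.9% were called in this comparison, 15.0% as higher and 11.9% as lower. The called share of the list was 36.6%. The genes that rose were Mbl1, Mbl2, C2, C4b, C9, C4bp, Serping1 and Vtn of complement, Kng1, Fga, Fgb, Fgg and Pros1 of clotting, and Serpinf2 and Cpb2 of fibrinolysis. At an unadjusted p under 0.05, 21 of the 41 were higher and 1, Masp1, was lower, beside 22.0% and 18.3% of all genes. The median log2 fold change of the 41 was 0.41, with 35 above 0, beside a median of 0.03 over all genes tested, of which 52.3% were above 0.

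The classes did not stand apart from each other by count: 8 of 20 complement genes, 5 of 18 clotting genes and 2 of 3 genes of fibrinolysis rose, with median log2 fold changes of 0.49, 0.28 and 0.55. No test compared the classes or the roles within them. All 3 fibrinogen genes and 3 of 4 complement regulators were called. Of the 7 factors of extrinsic and common clotting 0 were, and 0 of the 2 genes for C3 and the alternative pathway. Beside these stand 26.9% of all genes called and 15.0% called as higher, so a count of 0 in so small a role is near that share. For 3 of the 7 factors the VSG values all lay above those of Sham-WM.

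For 23 of the 41 genes the 4 values of VSG all lay above the 4 of Sham-WM, and for 0 genes all below. Over all genes tested, the values of 26.2% did not overlap, 14.3% with VSG higher. The 23 were the genes called apart from Serpinf2 and Cpb2, and in addition C1ra, C1s1, C8a, Cfi, F12, F7, F9, F2, Serpind1 and Plg. The heat map of all members shows this as a block of low values in Sham-WM and of high values in VSG.

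**Figure D2:**
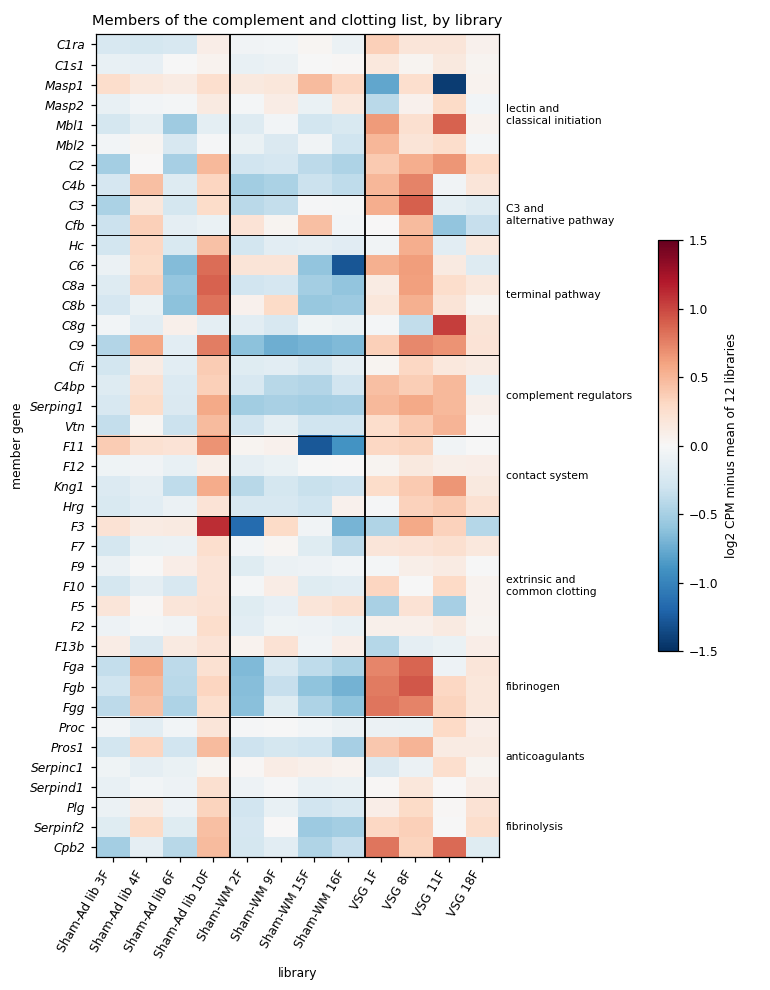
Each of the 41 genes (rows, grouped by role) in each of the 12 libraries (columns), as log2 CPM minus the gene's mean over 12 libraries; red is above the mean and blue below. Sham-WM libraries are mostly blue, VSG libraries mostly red, and Sham-Ad lib 10F is red for 37 of the 41 genes.

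In Sham-WM against Sham-Ad lib, 1 of the 41 genes, C9, was lower in Sham-WM and 0 were higher by edgeR. Of all genes tested, 6.99% were called in this comparison and 3.45% as lower, and 2.44% of the list. DESeq2 called 4 of the 41 as lower, C9, Serping1, F11 and Fgb, and 9.94% of all genes in either direction. At an unadjusted p under 0.05, 11 members were lower, where 10.5% of all genes were, and 0 higher. The median log2 fold change of the members was -0.20, with 33 of 41 below 0, beside 0.00 over all genes, of which 49.9% were below 0. The 4 values of the groups did not overlap for 6 genes, C4b, C9, C4bp, Serping1, F11 and Plg, each lower in Sham-WM, where 17.6% of all genes did not overlap and 8.40% were lower.

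In VSG against Sham-Ad lib, 0 of the 41 genes were called by edgeR, and 0.751% of all genes were. At an unadjusted p under 0.05, 7 members were higher, where 14.3% of all genes were, and 0 lower. They were C1ra, Mbl1, Mbl2, C2, Fgb, Fgg and Cpb2. DESeq2 called 2 of the 41, C1ra and Mbl1, and 8.42% of all genes. The median log2 fold change was 0.18, with 34 of 41 above 0, beside 0.03 over all genes, of which 53.2% were above 0. Mbl1 was the 1 gene whose values did not overlap, where 9.21% of all genes did not and 4.87% were higher without overlap. Without Sham-Ad lib 10F, 11 members were higher without overlap, and without VSG 18F 4 were. With a library left out, groups separate more easily by chance, and the share of all genes was not counted there. The 3 comparisons share libraries, so that low values in Sham-WM enter 2 of them; the fold changes of each member are set side by side in the plot of intervals.

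**Figure D3:**
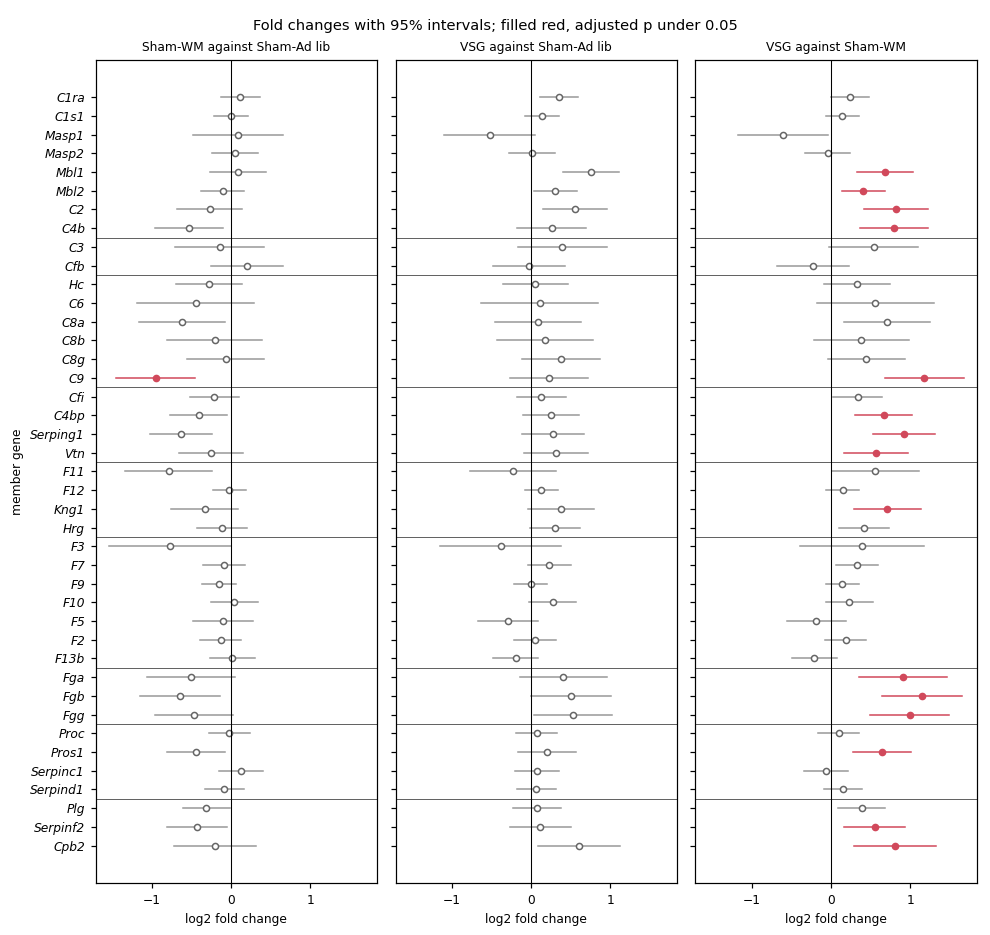
Log2 fold change (points) with its 95% interval (lines) for each of the 41 genes in the 3 comparisons, first group minus second; filled red points passed an adjusted p of 0.05. In VSG against Sham-WM 15 points are red and all lie right of 0, in Sham-WM against Sham-Ad lib 1 point, C9, is red and lies left of 0, and in VSG against Sham-Ad lib none is.

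Among the genes that begin the lectin and classical pathways, 4 of 8 rose in VSG against Sham-WM. Mbl1 and Mbl2 encode the mannose-binding lectins, which recognise sugars on microbes. Mbl1 stood at 136, 147, 112.7 and 148 CPM in the Sham-Ad lib libraries 3F, 4F, 6F and 10F. It stood at 143, 158, 134 and 139 CPM in Sham-WM 2F, 9F, 15F and 16F, and at 254, 193, 301 and 170 CPM in VSG 1F, 8F, 11F and 18F. Every VSG library was above all 8 sham libraries. The log2 fold change was 0.68 ± 0.16 (SE, n = 4 per group, adjusted p = 0.0104) against Sham-WM and 0.76 ± 0.16 (adjusted p = 0.051) against Sham-Ad lib, so Mbl1 was the member nearest to a call in the latter. The change from Sham-Ad lib to Sham-WM was 0.08 ± 0.16 (adjusted p = 0.835).

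Mbl2 was measured at 348, 365, 303 and 353 CPM in Sham-Ad lib, 332, 306, 345 and 289 CPM in Sham-WM and 505, 407, 428 and 349 CPM in VSG. The lowest VSG library, 18F, was above the highest Sham-WM library but within the range of Sham-Ad lib. Mbl2 was 0.41 ± 0.13 higher in VSG than in Sham-WM on the log2 scale (adjusted p = 0.03).

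C2 and C4b supply the fragments that form the C3 convertase of these pathways. C2 had 30.8, 44.1, 31.0 and 61.6 CPM in Sham-Ad lib, 36.1, 37.0, 33.5 and 31.9 CPM in Sham-WM, and 57.9, 63.9, 69.6 and 54.0 CPM in VSG. Its values in Sham-Ad lib were split, with 10F among the VSG libraries and 3F and 6F below all Sham-WM libraries. The rise over Sham-WM was 0.82 ± 0.19 (adjusted p = 0.00824). C4b had 1505, 2452, 1568 and 2243 CPM in Sham-Ad lib, 1250, 1292, 1431 and 1377 CPM in Sham-WM and 2535, 3000, 1730 and 2028 CPM in VSG. Sham-WM was lowest here and overlapped neither other group, and C4b was 0.80 ± 0.20 higher in VSG than in Sham-WM (adjusted p = 0.0126). C4b has a near copy, C4a, with 227 to 2097 counts per library, so that reads could have been divided between them.

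None of C1ra, C1s1, Masp1 and Masp2 was called by edgeR in VSG against Sham-WM. C1ra and C1s1, the proteases of the C1 complex, had log2 fold changes of 0.24 and 0.14 in VSG against Sham-WM, and Masp2, the lectin pathway protease, had -0.04 with an interval of -0.33 to 0.25. Masp1, a related protease, had the lowest fold change of the group and of the whole list, at -0.61 (adjusted p = 0.104). VSG 1F and VSG 11F held 42.3 and 26.9 CPM of Masp1, while VSG 8F and 18F held 86.2 and 75.5 CPM and the 8 sham libraries 78.7 to 101. Masp1 was called as lower without VSG 8F, and with 2 factors of unwanted variation estimated from residuals (RUVr) in the fit. Thus 2 of the 4 VSG libraries were low and the others lay in or near the sham range.

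C3 and factor B (Cfb), which drive the alternative pathway, were not called in any comparison by edgeR or by DESeq2, nor did they reach an unadjusted p under 0.05. C3 lay between 8773 and 18600 CPM in VSG and between 7545 and 9898 CPM in Sham-WM, so the ranges overlapped; its log2 fold change was 0.54, with an interval of -0.02 to 1.10. Cfb had 16.2 to 33.9 CPM in VSG and 23.8 to 33.4 CPM in Sham-WM, and its fold change was -0.23 (-0.69 to 0.23). C2 and Cfb are close neighbours on mouse chromosome 17, from 34862604 to 34898265 and from 34856374 to 34862518 on mm10, both on the minus strand. Their counts moved apart: the log2 ratio of C2 to Cfb was 0.92 to 2.1 in VSG and 0.01 to 0.56 in Sham-WM, without overlap, a difference of 1.10. In an exact two-sided permutation test this gave p = 0.0286, the smallest value possible with 4 against 4, and an adjusted p of 0.137 over the 8 pairs of neighbouring members compared. A read-through gene model, Gm20547, covers both genes and had 0 counts in every library, so that reads on exons it shares could have been left uncounted.

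Of the terminal components, which form the membrane attack complex, 1 of 6 was called. C9, the subunit that polymerises into the pore, showed the largest fold change of all 41 members. C9 (ENSMUSG00000022149, chromosome 15, 6445327 to 6498751, plus strand, mm10) had levels in Sham-Ad lib of 472, 960, 576 and 1091 CPM. In Sham-WM it was at 418, 385, 396 and 403 CPM, and in VSG at 821, 1053, 1020 and 736 CPM. Sham-WM lay below every library of both other groups. C9 was 1.18 ± 0.23 higher in VSG than in Sham-WM (2.26-fold, adjusted p = 0.00373) and -0.95 ± 0.23 in Sham-WM against Sham-Ad lib (adjusted p = 0.0256), while VSG and Sham-Ad lib differed by 0.23 ± 0.23 (adjusted p = 0.562). With 1 library left out, the fold change of Sham-WM against Sham-Ad lib ran from -1.13 to -0.75. It was not called without Sham-Ad lib 4F or 10F or without any 1 of the 4 Sham-WM libraries, with adjusted p of 0.058 to 0.0772 by edgeR.

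The other terminal genes had log2 fold changes in VSG against Sham-WM from 0.33 for Hc, which encodes C5, to 0.70 for C8a (adjusted p = 0.0548). C8a was called as higher with DESeq2, only the 2 groups compared, RUVr factors and without Sham-Ad lib 6F or 10F. C8a and C8b were spread widely among the freely fed mice. C8a ranged from 560 to 1543 CPM and C8b from 204 to 549 CPM in Sham-Ad lib, in each case with 6F lowest and 10F highest. C6 ranged from 85.8 to 241 CPM within Sham-WM. C8g, which encodes the small chain of C8, was at 642 CPM in VSG 11F and at 243 to 360 CPM in the other 11 libraries.

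Of the complement regulators, 3 of 4 rose in VSG against Sham-WM. Serping1 encodes C1 inhibitor, which blocks the proteases of complement initiation and of the contact system. It stood at 827, 1182, 841 and 1451 CPM in Sham-Ad lib, 684, 696, 689 and 695 CPM in Sham-WM, and 1369, 1454, 1375 and 1030 CPM in VSG. The 4 Sham-WM mice were almost the same, with a coefficient of variation of 0.855% against 27.9% in Sham-Ad lib and 14.4% in VSG, and lay below all 8 other libraries. The difference of VSG from Sham-WM was 0.92 ± 0.18 (adjusted p = 0.00392), and that of Sham-WM from Sham-Ad lib was -0.64 ± 0.18 (adjusted p = 0.0515).

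C4bp encodes the C4b-binding protein, a brake on the classical convertase. Its values were 628, 842, 622 and 923 CPM in Sham-Ad lib, 608, 540, 529 and 587 CPM in Sham-WM and 986, 931, 1005 and 668 CPM in VSG. Sham-WM was again below both other groups without overlap, and VSG 18F was the lowest of its group. C4bp was 0.66 ± 0.17 higher in VSG than in Sham-WM (adjusted p = 0.0122).

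Vtn, which encodes the terminal pathway inhibitor vitronectin, was at 2094, 2735, 2149 and 3719 CPM in Sham-Ad lib, 2189, 2429, 2183 and 2178 CPM in Sham-WM and 3211, 3524, 3822 and 2720 CPM in VSG. The Sham-Ad lib libraries spread from below the lowest Sham-WM value into the VSG range, and Sham-WM and VSG did not overlap. Vtn rose by 0.56 ± 0.19 (adjusted p = 0.0406). It was called in 5 of the 12 fits that left out 1 library, with adjusted p up to 0.0975 by edgeR. Cfi, the protease factor I, had the lowest fold change of the regulators, 0.34 (adjusted p = 0.0944), although its VSG libraries were all above those of Sham-WM.

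**Figure D4:**
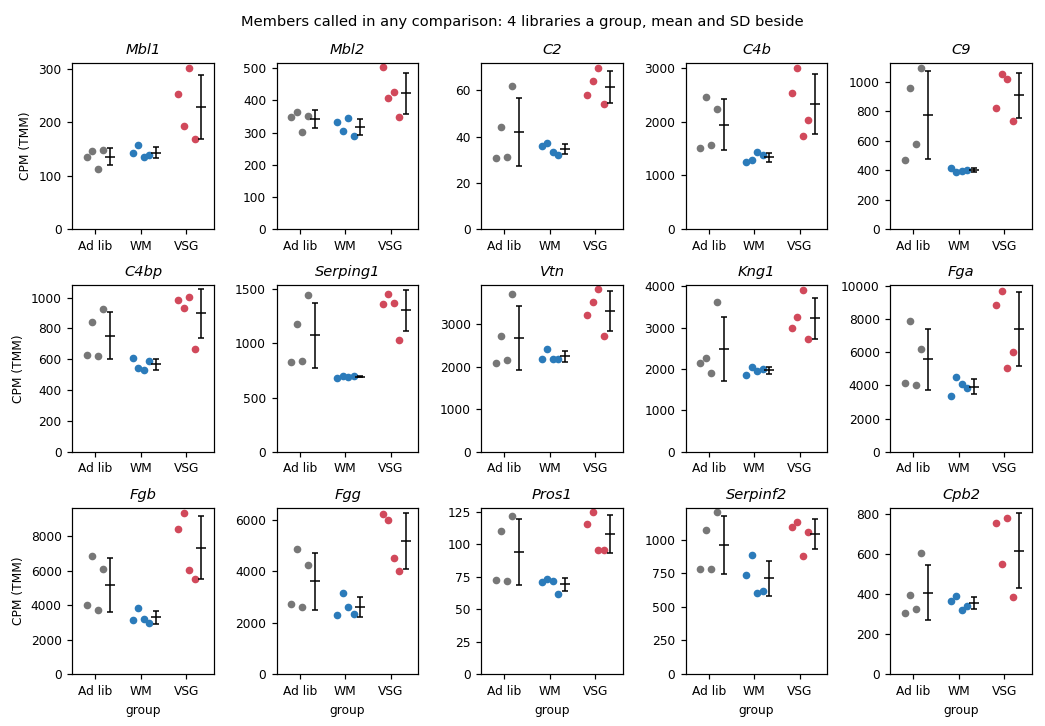
Level in CPM of the 15 genes called in any comparison, 1 point per library, with the mean and SD of each group of 4 beside the points, all axes from 0. Serping1 and C9 show the tight, low Sham-WM groups, and Mbl1 is the gene whose VSG libraries lie above all 8 sham libraries.

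Fibrinogen was the role in which every gene was called. Fga, Fgb and Fgg encode the 3 chains of fibrinogen and lie side by side on chromosome 3 of mm10: Fgg from 83007724 to 83015049 and Fga from 83026076 to 83033627 on the plus strand, and Fgb from 83040141 to 83049863 on the minus strand. Together the 3 genes took 1.04 to 2.02% of all counts in Sham-Ad lib, 0.912 to 1.16% in Sham-WM and 1.37 to 2.57% in VSG. The shares of VSG and Sham-WM thus did not overlap.

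Fgb (ENSMUSG00000033831) was at 3979, 6846, 3686 and 6094 CPM in Sham-Ad lib, 3143, 3832, 3213 and 2976 CPM in Sham-WM and 8383, 9317, 6046 and 5501 CPM in VSG. All VSG libraries were above all Sham-WM libraries, and Sham-Ad lib 4F and 10F reached the lower VSG values. Fgb was 1.15 ± 0.24 higher in VSG than in Sham-WM (2.22-fold, adjusted p = 0.00453). Its fold changes against Sham-Ad lib had opposite signs, 0.51 ± 0.23 in VSG (adjusted p = 0.205) and -0.65 ± 0.23 in Sham-WM (adjusted p = 0.118). Neither was called by edgeR with all 12 libraries and no added factors. DESeq2 called Fgb as lower in Sham-WM (adjusted p = 0.0414). With RUVr factors both changes were called.

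Fgg had 2720, 4872, 2597 and 4252 CPM in Sham-Ad lib, 2320, 3157, 2608 and 2350 CPM in Sham-WM and 6224, 6008, 4507 and 4022 CPM in VSG. Fga had 4141, 7902, 4038 and 6220 CPM in Sham-Ad lib, 3346, 4489, 4060 and 3831 CPM in Sham-WM and 8831, 9716, 5020 and 6040 CPM in VSG. For both, VSG and Sham-WM did not overlap and VSG 1F and 8F were highest. Fgg was 0.99 ± 0.23 (adjusted p = 0.00836) and Fga 0.91 ± 0.26 (adjusted p = 0.0212) higher in VSG than in Sham-WM. The mean log2 ratio of Fgg to Fgb was -0.48 in VSG, -0.34 in Sham-WM and -0.52 in Sham-Ad lib, and that of Fga to Fgb was 0.00, 0.25 and 0.11. Every Sham-WM library had a higher ratio of Fgg to Fgb than every Sham-Ad lib library, and the other comparisons of these ratios overlapped. The exact permutation test gave p = 0.0286 for this and an adjusted p of 0.114 over the 8 pairs of neighbouring members. The ratio of F7 to F10 had the same values in that comparison.

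Promoter sequence was examined because the fibrinogen genes moved together. RefSeq windows on GRCm38.p6, the build also called mm10, were given for 32 of the 41 genes, 11 of them called, and the 250 bases before the start were searched on both strands for TTCNNNGAA, a form of the site bound by STAT3, the factor through which interleukin-6 acts. This motif was found for 6 of the 32 genes (18.8%), Masp2, C8a, F9, Fga, Fgb and Pros1, and in 7.02% of all 32851 windows. Members were counted by gene, where any window of a gene with several sufficed, and the background by window. The shares of members and of all windows are therefore not like measures for any of the motifs. The motif GTTAATNAT, part of the site of the liver factor HNF1, was in 4 of 32 (12.5%), those of Hc, C4bp, F13b and Fga, and in 0.737% of all windows. TTNNGNAA, a loose form of the C/EBP site, was in 15 of 32 (46.9%) beside 36.8%, and CAAAGTCCA, of the HNF4 type, in 0 of 32 beside 0.384%. Among the 11 called genes with a window, 3 held TTCNNNGAA and 2 held GTTAATNAT. Many genes of the list are made in hepatocytes, and the windows of other liver genes were not set apart as a background.

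The windows of the fibrinogen genes, and of Pros1 and C4bp as called genes outside that locus, are shown 5′ to 3′ on the gene's strand, as the bases before the RefSeq start that lie outside the GENCODE gene. Capitals mark TTCNNNGAA in Fga, Fgb and Pros1 and GTTAATNAT in C4bp; Fgg holds neither, and the GTTAATNAT of Fga lies past the bases shown. The first base of the motif lies at -234 in Fga, -162 in Fgb, -92 in Pros1 and -64 in C4bp, counted from the RefSeq start.
Fga, chr3:83025903-83026075, plus strand: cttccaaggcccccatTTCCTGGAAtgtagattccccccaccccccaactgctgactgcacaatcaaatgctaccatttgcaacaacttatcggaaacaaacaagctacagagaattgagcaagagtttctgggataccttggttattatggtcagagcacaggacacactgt
Fgb, chr3:83049864-83050113, minus strand: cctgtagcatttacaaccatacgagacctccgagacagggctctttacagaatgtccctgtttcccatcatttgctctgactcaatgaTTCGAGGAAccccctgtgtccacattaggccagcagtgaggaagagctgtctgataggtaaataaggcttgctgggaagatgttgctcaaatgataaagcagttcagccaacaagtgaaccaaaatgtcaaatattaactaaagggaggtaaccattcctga
Fgg, chr3:83007474-83007723, plus strand: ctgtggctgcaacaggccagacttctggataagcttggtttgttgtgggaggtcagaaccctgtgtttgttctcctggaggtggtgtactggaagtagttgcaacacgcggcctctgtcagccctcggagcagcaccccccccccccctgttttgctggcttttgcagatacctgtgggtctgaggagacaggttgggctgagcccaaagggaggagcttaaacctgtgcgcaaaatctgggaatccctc
Pros1, chr16:62854057-62854306, plus strand: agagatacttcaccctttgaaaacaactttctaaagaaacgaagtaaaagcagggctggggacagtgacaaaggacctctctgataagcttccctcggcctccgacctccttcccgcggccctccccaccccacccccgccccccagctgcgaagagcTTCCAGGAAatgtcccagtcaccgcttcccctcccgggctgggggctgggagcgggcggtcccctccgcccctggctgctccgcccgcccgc
C4bp, chr1:130661633-130661868, minus strand: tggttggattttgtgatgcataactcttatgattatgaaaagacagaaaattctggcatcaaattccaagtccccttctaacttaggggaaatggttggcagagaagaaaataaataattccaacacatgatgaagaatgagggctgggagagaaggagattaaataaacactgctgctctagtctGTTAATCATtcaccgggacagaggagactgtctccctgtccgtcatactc

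The contact system, which starts clotting on charged surfaces and releases bradykinin, had 1 call in 4 genes. Kng1, the kininogen from which bradykinin is cut, was at 2144, 2257, 1904 and 3631 CPM in Sham-Ad lib, 1851, 2059, 1964 and 1991 CPM in Sham-WM and 2997, 3252, 3913 and 2730 CPM in VSG. The VSG libraries were all above the Sham-WM libraries, and Sham-Ad lib 10F lay among them. Kng1 was 0.71 ± 0.20 higher in VSG than in Sham-WM (adjusted p = 0.0188). Its near copy Kng2 had 4903 to 8352 counts per library, and reads could have been divided between them. F12, the first protease of the system, had the lowest fold change of the group, 0.15, with an interval of -0.06 to 0.36. Hrg, histidine-rich glycoprotein, just missed a call at 0.42 (adjusted p = 0.0501). It was called as higher with DESeq2, upper quartile scaling, a minimum of 10 counts per library and RUVr factors. The same held without Sham-Ad lib 10F, Sham-WM 16F or VSG 1F. F11, clotting factor XI, was at 38.9 and 50.7 CPM in Sham-WM 15F and 16F, against 97.1 and 98.8 CPM in 2F and 9F and 90.8 to 151 CPM in the other groups.

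None of the 7 factors of the extrinsic and common pathway was called in any of the 3 comparisons by edgeR or by DESeq2 with all 12 libraries and no added factors. In Sham-WM against Sham-Ad lib, F3 alone had an unadjusted p under 0.05, and in VSG against Sham-Ad lib 0 of the 7 did. Their log2 fold changes in VSG against Sham-WM ran from -0.21 for F13b, the carrier chain of the fibrin cross-linking factor, to 0.39 for F3, with 1 of the 7 at an unadjusted p under 0.05. That was F7, the partner of tissue factor, which was at 121 to 128 CPM in VSG and 82.2 to 110.7 CPM in Sham-WM, without overlap (0.33, adjusted p = 0.0643). F7 was called as higher without Sham-Ad lib 10F and with RUVr factors. Prothrombin (F2) was at 2109 ± 61.5 CPM (SD, n = 4) in VSG, 1856 ± 51.7 in Sham-WM and 2037 ± 234 in Sham-Ad lib. The VSG values were all above those of Sham-WM, and its fold change of 0.18 in VSG against Sham-WM had an interval of -0.08 to 0.44. F5, the cofactor of the prothrombin-cutting complex, was at 594 to 978 CPM in VSG and 737 to 990 CPM in Sham-WM (-0.18, -0.56 to 0.19).

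Of the anticoagulant genes, 1 of 4 was called. Pros1 encodes protein S, the cofactor of activated protein C. It had 72.4, 110, 71.9 and 122 CPM in Sham-Ad lib, 70.8, 73.0, 71.3 and 61.9 CPM in Sham-WM and 116, 125, 95.7 and 95.4 CPM in VSG. The VSG libraries were all above those of Sham-WM, and Sham-Ad lib 3F and 6F lay within Sham-WM. Pros1 was 0.64 ± 0.17 higher in VSG than in Sham-WM (adjusted p = 0.0163). Serpinc1, antithrombin, had the lowest value of this role at -0.06 with an interval of -0.34 to 0.22, Proc, protein C, had 0.10 (-0.16 to 0.36) and Serpind1, heparin cofactor II, 0.15 (-0.09 to 0.40).

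The 6 genes F2, F7, F9, F10, Proc and Pros1 encode proteins that need vitamin K-dependent carboxylation; this grouping was made after their values were seen. Pros1 was the 1 of 6 that was called in VSG against Sham-WM, where the 6 fold changes lay between 0.10 and 0.64. The enzyme that performs the carboxylation, Ggcx, was at 48.5 to 54.3 CPM in VSG, 71.4 to 77.2 CPM in Sham-WM and 52.0 to 62.2 CPM in Sham-Ad lib. It thus moved the other way, by -0.51 in VSG against Sham-WM (adjusted p = 0.00194) and 0.34 in Sham-WM against Sham-Ad lib (adjusted p = 0.0301). Of the vitamin K reductases, Vkorc1l1 had -0.29 in VSG against Sham-WM (adjusted p = 0.0383) and Vkorc1 had 0.30 (adjusted p = 0.234). Lman1, the cargo receptor that carries factors V and VIII out of the endoplasmic reticulum, was at 180 to 226 CPM in VSG, 345 to 406 CPM in Sham-WM and 254 to 307 CPM in Sham-Ad lib. Its 3 groups did not overlap, and it fell by 0.85 on the log2 scale in VSG against Sham-WM (adjusted p = 0.000531).

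Both inhibitors of fibrinolysis were called, and plasminogen just missed a call. Serpinf2, antiplasmin, had 782, 1077, 782 and 1208 CPM in Sham-Ad lib, 741, 886, 605 and 618 CPM in Sham-WM and 1099, 1132, 882 and 1061 CPM in VSG. VSG 11F lay just below Sham-WM 9F, so the groups overlapped by 1 library each, and the fold change was 0.55 ± 0.18 (adjusted p = 0.0365). Cpb2, whose product TAFI trims the plasminogen binding sites from fibrin, had 306, 394, 325 and 603 CPM in Sham-Ad lib, 363, 391, 319 and 342 CPM in Sham-WM and 756, 549, 780 and 384 CPM in VSG. VSG 18F was inside the Sham-WM range and the other VSG libraries were above it, with a fold change of 0.80 ± 0.24 (adjusted p = 0.0271). Plg, plasminogen, was at 2872 to 3476 CPM in VSG, 2320 to 2629 CPM in Sham-WM and 2681 to 3569 CPM in Sham-Ad lib, so Sham-WM was below both groups without overlap (0.39 against Sham-WM, adjusted p = 0.0531). Plg was called with DESeq2, upper quartile scaling, a minimum of 10 counts per library, RUVr factors and without VSG 11F. Of the 12 fits that left out 1 library, Serpinf2 was called in 6 and Cpb2 in 7.

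Of the 26 members not called in VSG against Sham-WM, 10 had a 95% interval that stayed within 0.5 of 0 on the log2 scale: C1ra, C1s1, Masp2, F12, F9, F2, F13b, Proc, Serpinc1 and Serpind1. The intervals of the other 16 reached beyond that, so a change of that size lay within their error.

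A wider list of 56 other genes of the same pathways was also counted, of which 50 were tested. Of these, 17 were higher and 3 lower in VSG than in Sham-WM, beside 15.0% and 11.9% of all genes. Complement genes among those that rose in VSG included C1qa, C1qb and C1qc, the chains of the C1q recognition protein, Cfp (properdin), Fcna (a ficolin), Vsig4 (a complement receptor of macrophages), the anaphylatoxin receptors C3ar1 and C5ar1, and the inhibitors Clu and Cd59a. C1qa was at 63.8 to 175 CPM in VSG and at most 32.9 CPM in Sham-WM (2.05, adjusted p = 0.00243). Of clotting and fibrinolysis genes, Procr, Serpina10, F13a1, Kng2 and Plaur were among those that rose. Cfd, adipsin, a gene of fat cells, was at 5.33 to 10.2 CPM in Sham-Ad lib and at most 1.79 CPM in the other 8 libraries, and was called as lower in Sham-WM (-4.44, adjusted p = 0.000877) and in VSG (-2.87, adjusted p = 0.0435).

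Some other lists moved with these results, and some did not. All 5 Kupffer cell markers were called as higher in VSG against Sham-WM, with a summed level of 341 to 1004 CPM in VSG, 89.3 to 159 CPM in Sham-WM and 101 to 342 CPM in Sham-Ad lib. All 5 neutrophil markers were called too, at 27.9 to 919 CPM summed in VSG, 1.12 to 2.34 CPM in Sham-WM and 0.379 to 14.6 CPM in Sham-Ad lib; Mpo was at 0 in 3 of the 4 Sham-WM libraries. Of 5 platelet markers the 4 tested rose, and the 5 summed to 1.86 to 3.57 CPM in Sham-WM and 6.54 to 18.0 CPM in VSG. All 3 T and NK cell markers tested rose, with a median log2 fold change of 2.01, as did 2 of 4 B and plasma cell markers, Jchain and Ighm. The T and NK cell markers were low, and the 4 listed summed to 0.969 to 2.14 CPM in Sham-WM and 3.01 to 7.47 CPM in VSG. Of 5 stellate cell markers 2 fell, Lrat at -1.33 and Reln at -1.06. Of the hepatocyte markers, 2 of 7 were lower, Alb at -0.73 and Cps1 at -0.83. Of the markers of sinusoidal endothelium 0 of 5 were called, of cholangiocytes 0 of 4 and of red blood cells 0 of 4. The part of these cell types in the result was not tested.

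A list of 12 acute phase genes that held no member moved in the same way. Of the 12, 11 were higher in VSG than in Sham-WM, with a median log2 fold change of 2.5, and Itih4 was the gene not called. Their summed level was 17580 to 86270 CPM in VSG, 10730 to 13000 CPM in Sham-WM and 10060 to 43450 CPM in Sham-Ad lib. A list of 6 negative acute phase genes, which fall in such a response, had 1 gene called in VSG against Sham-WM, Alb, as lower. The median log2 fold change of these 6 was 0.03, with 3 above 0 and 3 below. Saa1 (serum amyloid A) was at 11970, 5208 and 11830 CPM in VSG 1F, 8F and 11F but at 245 CPM in VSG 18F. It was at 2127 and 6026 CPM in Sham-Ad lib 4F and 10F and at 141 and 798 CPM in 3F and 6F. VSG 18F was above all 4 Sham-WM libraries for 10 of the 12 acute phase genes, all but Saa1 and Saa3, and for 28 of the 41 members. The other VSG libraries were so for all 12 and for 31 to 33 members. Below all 4 Sham-WM libraries were 2 members in VSG 18F and 4 to 6 in the other VSG libraries. The share of all genes was not counted for single libraries. The part of an acute phase response in the members' levels was not tested.

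**Figure D5:**
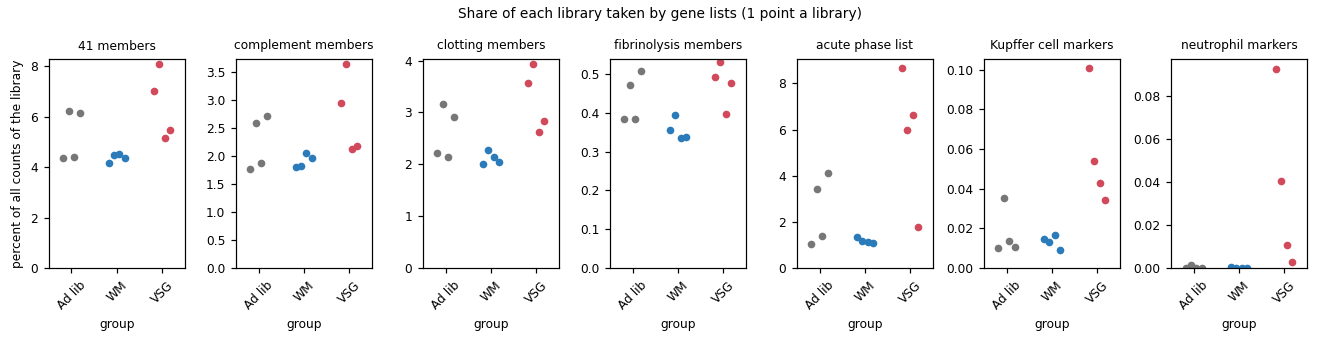
Percent of all counts of a library taken by the 41 genes, by each of their classes, and by the acute phase, Kupffer cell and neutrophil lists, 1 point per library, all axes from 0. The 41 genes took 5.14 to 8.11% of counts in VSG and 4.17 to 4.54% in Sham-WM, and the acute phase list shows VSG apart from its lowest library far above Sham-WM.

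The members varied least among the food-restricted mice. The 41 genes together took 4.36 to 6.23% of all counts in Sham-Ad lib, 4.17 to 4.54% in Sham-WM and 5.14 to 8.11% in VSG. The median SD of log2 CPM over the members was 0.22 in VSG, 0.11 in Sham-WM and 0.28 in Sham-Ad lib, beside 0.30, 0.20 and 0.20 over all genes tested. For 31 of the 41 members the SD was smallest in Sham-WM. In Sham-Ad lib, 4F and 10F were both above 3F and 6F for 27 of the 41 members, which held for 20.9% of all genes. This split was not set in advance, so the count only describes these values. Sham-Ad lib 10F was the highest of the 12 libraries for 13 members, VSG 11F for 11 and VSG 8F for 9.

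Of the 15 calls in VSG against Sham-WM, 9 were made in each of the 12 fits that left out 1 library: Mbl1, C2, C4b, C9, C4bp, Serping1, Kng1, Fgb and Fgg. The count of calls fell to 10 without Sham-WM 2F and without Sham-WM 16F. With 2 factors of unwanted variation estimated from replicates by the RUVs definition, 0 of the 41 were called by edgeR, 2 at an unadjusted p under 0.05, and the share of all genes called was 3.96%.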

How the data were processed

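Liver RNA of 12 mice, 4 per group, was sequenced from directional poly(A) libraries. Per the study's methods, the authors aligned paired reads to mm10 with TopHat2 2.1.1 and counted reads on genes with featureCounts; the strand setting is not given in the sources used here. The deposited table holds raw counts of each Ensembl gene in each library, with no normalization or batch correction. Libraries were assigned by the animal number that column names and sample titles share.

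Symbols and mm10 positions came from GENCODE M21, which matched 45229 of 46078 genes. Genes were kept by filterByExpr of edgeR 4.0.16 (minimum count 10, minimum total 15; R 4.3.3), and group means of all 12 libraries with TMM factors (0.879 to 1.04) were tested by quasi-likelihood in 3 contrasts, with Benjamini-Hochberg adjustment over 13054 genes and calls at 0.05. Errors of fold changes are standard errors, and intervals are 95% on the log2 scale. Log2 CPM used a prior count of 2. The lowest Spearman rho between libraries of a group was 0.963 and no 2 libraries were identical. Each library came from another mouse. The standard errors, intervals and p-values take in the spread between the mice of a group. The counts carry no molecular identifiers, so duplicate reads could not be told apart. The methods were tested on simulated counts.

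The members and all lists were chosen with earlier results of these data known. Full values are given for members called in any contrast, at most 20, and for the rest ranges, counts and the extremes of each role. C1s1, Masp2, C2, Hc, F5, Fgg, Serpinc1 and Plg share exonic bases with a gene on the other strand. Some genes of the wider list are counted but not reported here by name.

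Alternatives were grouping by the description field of the labels, upper quartile scaling, DESeq2 1.42.0, size factors of DESeq2 within edgeR, a minimum of 10 counts per library or no filter, fits of 2 groups, 2 factors by the RUVr or RUVs definition (the study used 2 RUVSeq factors; the package was not at hand), and leaving out each library. Promoter windows came from RefSeq on GRCm38.p6.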

Additional observations from a re-analysis of the deposited data

Results flagged for a closer look

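In 5 of 123 tests of a gene within a group of 4 libraries (4.07%), 1 library lay far from the other 3 on the log2 CPM scale by Dixon's test, which chance gives in about 1 of 20 groups. In each case the library was the highest of its group. Sham-Ad lib 10F was such a library for C1ra (a gap of 0.908 of the group's range, 320 CPM against 255 for the nearest library), for F3 (0.906, 7.97 against 4.24 CPM) and for F2 (0.841, 2385 against 1958 CPM). Sham-WM 9F was so for Vtn (0.954, 2429 against 2189 CPM) and Sham-WM 16F for Hrg (0.841, 1504 against 1216 CPM). None of these cases concerned a VSG library.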

How the results depend on the processing

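In VSG against Sham-WM, the 41 members gave 12 to 21 calls with DESeq2, either other scaling, either other filter, only 2 groups or RUVr factors, where 14.3 to 42.2% of all genes were called, and 10 to 18 with 1 library left out (16.5 to 29.1%). All were higher except Masp1, lower with RUVr factors and without VSG 8F. The median stayed between 0.325 and 0.479 and the genes without overlap between 22 and 26 with 1 library left out. RUVs factors gave 0 calls (3.96% of all genes) and a median of 0.125, and grouping by the description field gave 0 calls, 0 genes without overlap and a median of -0.0693; the cause was not tested. In VSG against Sham-Ad lib, calls were 1 with DESeq2 size factors (0.973% of all genes), 1 with no filter (2.72%), 2 with DESeq2 (8.42%), 8 with RUVr factors (7 higher, 23.2%) and 0 to 2 with 1 library left out (0 to 8.2%): Mbl1 was called without Sham-Ad lib 4F or VSG 8F, and Mbl1 and Cpb2 without VSG 18F. The median was -0.0812 by the description field, -0.0122 with RUVs factors and 0.0875 to 0.318 with 1 library left out, and genes without overlap were 1 to 11, with 11 without Sham-Ad lib 10F. In Sham-WM against Sham-Ad lib, calls were 0 by the description field, 2 at a minimum of 10 counts per library (8.08% of all genes), 2 with only 2 groups (11.1%), 2 with RUVs factors (13.1%), 4 with DESeq2 (9.94%), 7 with RUVr factors (16.8%) and 0 to 2 with 1 library left out (3.19 to 9.89%). Its median was -0.0316 by the description field and -0.3 to -0.0898 with 1 library left out, and genes without overlap were 0 by the description field and 6 to 10 with 1 library left out. In all 3 comparisons, the share of all genes without overlap was not counted with a library left out, where groups separate more easily by chance.

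Fold changes of the 15 named members changed sign in 26 cases under the description field, in 11 with RUVs factors and in 1 with a library left out, and in 0 cases under any other alternative. By the description field, VSG against Sham-Ad lib had Mbl1 -0.0418, C2 -0.136, C9 -0.25, C4bp -0.0758, Serping1 -0.107, Vtn -0.221, Kng1 -0.242 and Cpb2 -0.177. Sham-WM against Sham-Ad lib had Mbl1 -0.244, C4b 0.294, C9 0.0305, Fga 0.451, Fgb 0.37, Fgg 0.278, Pros1 0.117 and Serpinf2 0.227. VSG against Sham-WM had C4b -0.184, C9 -0.281, C4bp -0.0227, Serping1 -0.0942, Vtn -0.0854, Fga -0.226, Fgb -0.173, Fgg -0.122, Pros1 -0.101 and Serpinf2 -0.0741. With RUVs factors, VSG against Sham-Ad lib had C4b -0.0715, C9 -0.198, C4bp -0.162, Serping1 -0.099, Fga -0.0653, Fgb -0.0162, Pros1 -0.152, Serpinf2 -0.111 and Cpb2 -0.0061. There Cpb2 had 0.0451 in Sham-WM against Sham-Ad lib and -0.0511 in VSG against Sham-WM. With TMM alone it ran from -0.316 to 0.0403 in Sham-WM against Sham-Ad lib with 1 library left out, the highest without Sham-Ad lib 10F. No paired analysis was possible because the groups share no animal number. Counts limited F3 and Cfb most, with lowest counts of 31 and 215.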
